A study of Saccharomyces cerevisiae with 16 samples.

Results

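Replicate 1 of the total RNA experiment was a set of yeast cultures grown on 1 day, and 3 of the 16 samples in the series belonged to it here: one WT culture, one rrp6Δ culture and one rtr1Δ rrp6Δ culture. They were taken by the replicate number in their labels and in the column headers. Replicate 1 was chosen with earlier results of these data known. The 3 libraries were set against the 8 other libraries of the same 3 genotypes. These were WT replicates 2, 3 and 4, rrp6Δ replicates 3 and 4, and rtr1Δ rrp6Δ replicates 2, 3 and 4. The rtr1Δ samples of the series, which include a replicate 1, were not analysed. The question was which transcripts differed between the growth day of replicate 1 and the 3 other days in all 3 genotypes used. According to the methods of the study, all strains of a biological replicate were grown together on the same day and further replicates on other days, so the replicate number stands for the day. RNA isolation, library preparation and sequencing of a replicate number cannot be told apart from its day of growth.

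All cultures were isogenic to BY4741, a haploid MATa laboratory strain of Saccharomyces cerevisiae, and were harvested from rich glucose medium (YPD) at an OD600 of 0.8. WT cells carried both RRP6 and RTR1. The rrp6Δ strain, taken from the yeast knockout collection, lacks Rrp6, the exonuclease of the nuclear exosome. The rtr1Δ rrp6Δ strain was made from it by replacing RTR1, whose product removes phosphates from the tail of RNA polymerase II, with a kanamycin resistance cassette. Each genotype is 1 strain. The day was measured once on the replicate 1 side and on 3 days on the other side, so every p-value here measures the spread between libraries and not the spread between days.

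Budding yeast turns a large part of its genome up or down with its growth rate. Fast growth on glucose goes with high expression of the genes that build ribosomes, and many of these carry the PAC element in their promoters. Slow growth, stress or falling glucose goes with expression of the general stress genes bound by the paralogous factors Msn2 and Msn4 at the stress response element (STRE), with storage of glycogen and trehalose, and with release of respiratory and alternative carbon genes from glucose repression.

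The 11 libraries held 28765694 to 38578463 counts over 12670 transcripts, of which 5836 were mRNAs (ORF-T) and the others antisense (AST, 3055), Nrd1-unterminated (NUT, 1442), cryptic unstable (CUT, 844), stable unannotated (SUT, 719) and other noncoding transcripts. RRP6 stood at 113 to 194 CPM (counts scaled to library size) in WT and at 0.201 to 0.729 CPM in the deletion strains, and RTR1 at 13.2 to 21.4 CPM where it was intact and at 1.08 to 1.46 CPM in rtr1Δ rrp6Δ. The 7 a-cell markers were all detected, with a summed level of 1699 to 2109 CPM in replicate 1 and 1487 to 1628 CPM in the others. By the test described below, 2 of the 7 were higher in replicate 1 (STE2 and STE6) and 1 was lower (ASG7). The 4 α-cell markers summed to 33 to 34.3 CPM in replicate 1 and to 28 to 32.7 CPM in the others, and none of them was called. In both sets the sums did not overlap. Of 7 meiotic markers 5 were measured, with sums of 25 to 39.6 and 26.3 to 41 CPM. None of these markers had a count of 0 in any library. TMM scaling factors ran from 0.870 in WT replicate 1 to 1.10 in rrp6Δ replicate 1, and the 10 most abundant transcripts took 9.10 to 11.2% of the counts.

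The 3 replicate 1 libraries stood apart from the rest in every genotype. After removal of each genotype's mean, the first principal component carried 55.9% of the variance and placed them at 35.2, 35.2 and 39.1, whereas the 8 others lay between -18.7 and -4.75. Across ORF-T rows, deviations of the replicate 1 libraries from their genotype means correlated with each other at r = 0.85 to 0.89, and with those of libraries of another number at no more than -0.23. This correlation is across genes, which are not independent replicates. The genotype means include replicate 1, so deviations within a genotype balance each other. The opposite signs of replicate 1 and the others, here and on the first component, are thus in part fixed by the centring. Libraries of numbers 2, 3 and 4 had r = 0.40, 0.66 to 0.76 and 0.48 to 0.76 with their partners of the same number. Pairs of unlike numbers reached 0.53, so for numbers 2 and 4 these values do not show a shared day.

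At an adjusted p of at most 0.05 (edgeR quasi-likelihood test with genotype as covariate) and a change of at least 1.5-fold, 636 transcripts (5.02%) were higher and 1033 (8.15%) lower in replicate 1. Of these 1669, 1637 changed in the same direction in all 3 genotypes. In 597 of the higher and 900 of the lower ones the replicate 1 library lay beyond every other library of its own genotype, in all 3 genotypes. Over all 12670 transcripts, called or not, 2725 lay above and 2213 below in this way. The 1669 were called on these same libraries, so their agreement between genotypes is in part built in. The numbers of called transcripts rested in part on single libraries. Without rtr1Δ rrp6Δ replicate 1, 343 transcripts were higher and 1172 lower. Without rrp6Δ replicate 3 they were 413 and 1307, and without all of replicate 4 they were 420 and 1229. With no minimum fold, 2534 transcripts were higher and 2298 lower.

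Each replicate number was then set against the mean of the other 3 in a fit with genotype and replicate number. Number 1 gave 1661 called transcripts (13.1%), number 4 gave 381 (3.01%), number 3 gave 218 (1.72%) and number 2, with no rrp6Δ library, gave 76 (0.6%). The median absolute log2 difference was 0.236 for number 1, 0.117 for number 2, 0.130 for number 3 and 0.142 for number 4. These contrasts share libraries, and the other days also differed from each other.

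**Figure D1:**
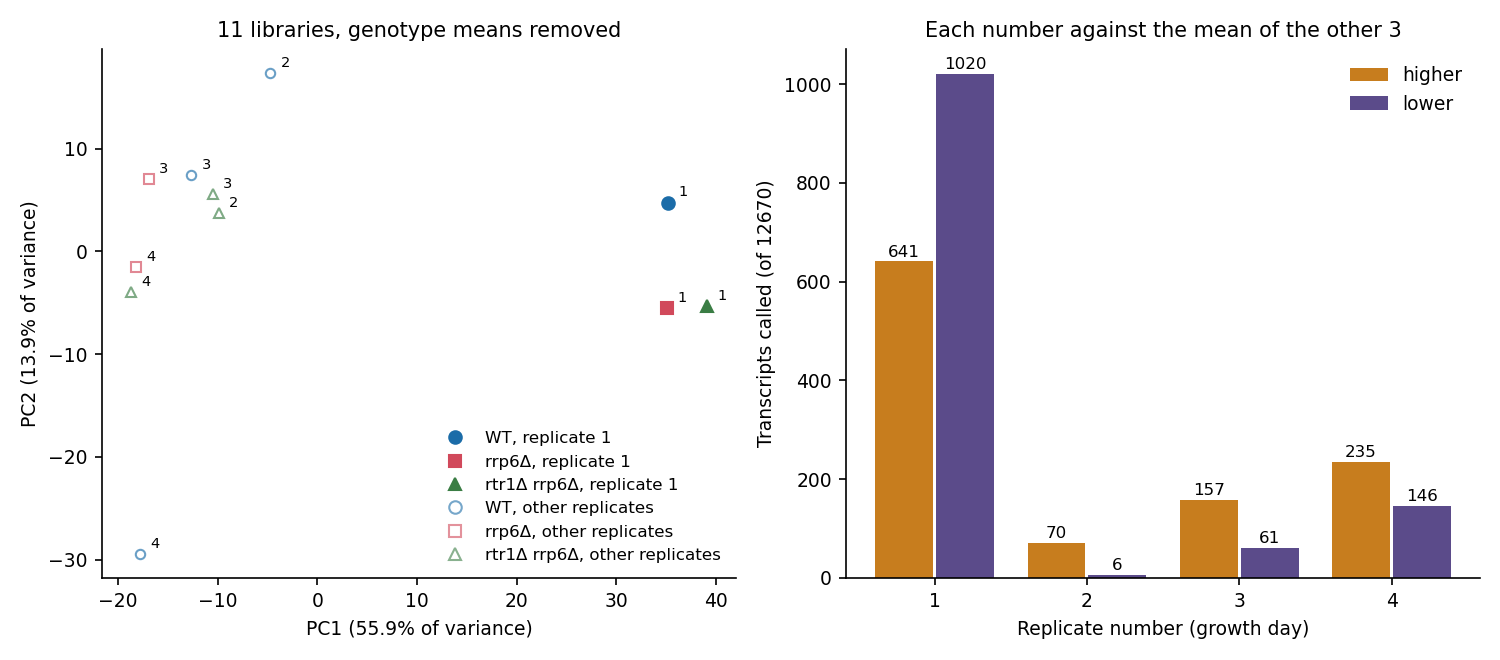
Left, principal components of the 11 libraries after removal of genotype means, with filled symbols for replicate 1, open symbols for the others, and the replicate number beside each point. Right, transcripts called higher or lower (adjusted p at most 0.05 and at least 1.5-fold) when each replicate number is set against the mean of the other 3. Replicate 1 lies alone at 35.2 to 39.1 on the first axis and has 641 higher and 1020 lower transcripts, against 235 and 146 for number 4.

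Groups of genes were described by how many members passed the test (adjusted p not above 0.05, no fold minimum), beside all ORF-T rows, of which 23.2% were called higher and 23.5% lower with a median log2 difference of 0.02. By position alone, with no test, 1428 ORF-T rows (24.5%) lay above and 1339 (22.9%) below every other library of their genotype in all 3 genotypes. ORF-T rows matched to the annotation had median log2 differences of -0.03, -0.04, -0.03, 0.02 and 0.13 over 5 bins of coding length, from shortest to longest. Calls shifted with length. In the shortest bin 184 of 1121 rows were higher and 283 lower, and in the longest 371 of 1115 were higher and 175 lower. The part of length in the group values was not tested. In some groups the called shares in both directions were near or below those of all ORF-T. These were the aminoacyl-tRNA synthetase, histone, unfolded protein response, drug and weak acid pump, mitochondrial ribosomal protein and Gcn4 groups. The vitamin, anaerobic, PAU, α-cell and meiosis groups were among them too. Some genes belong to several groups. Where members of a group are named without values, they complete a small count and were chosen after their values were seen.

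**Figure D2:**
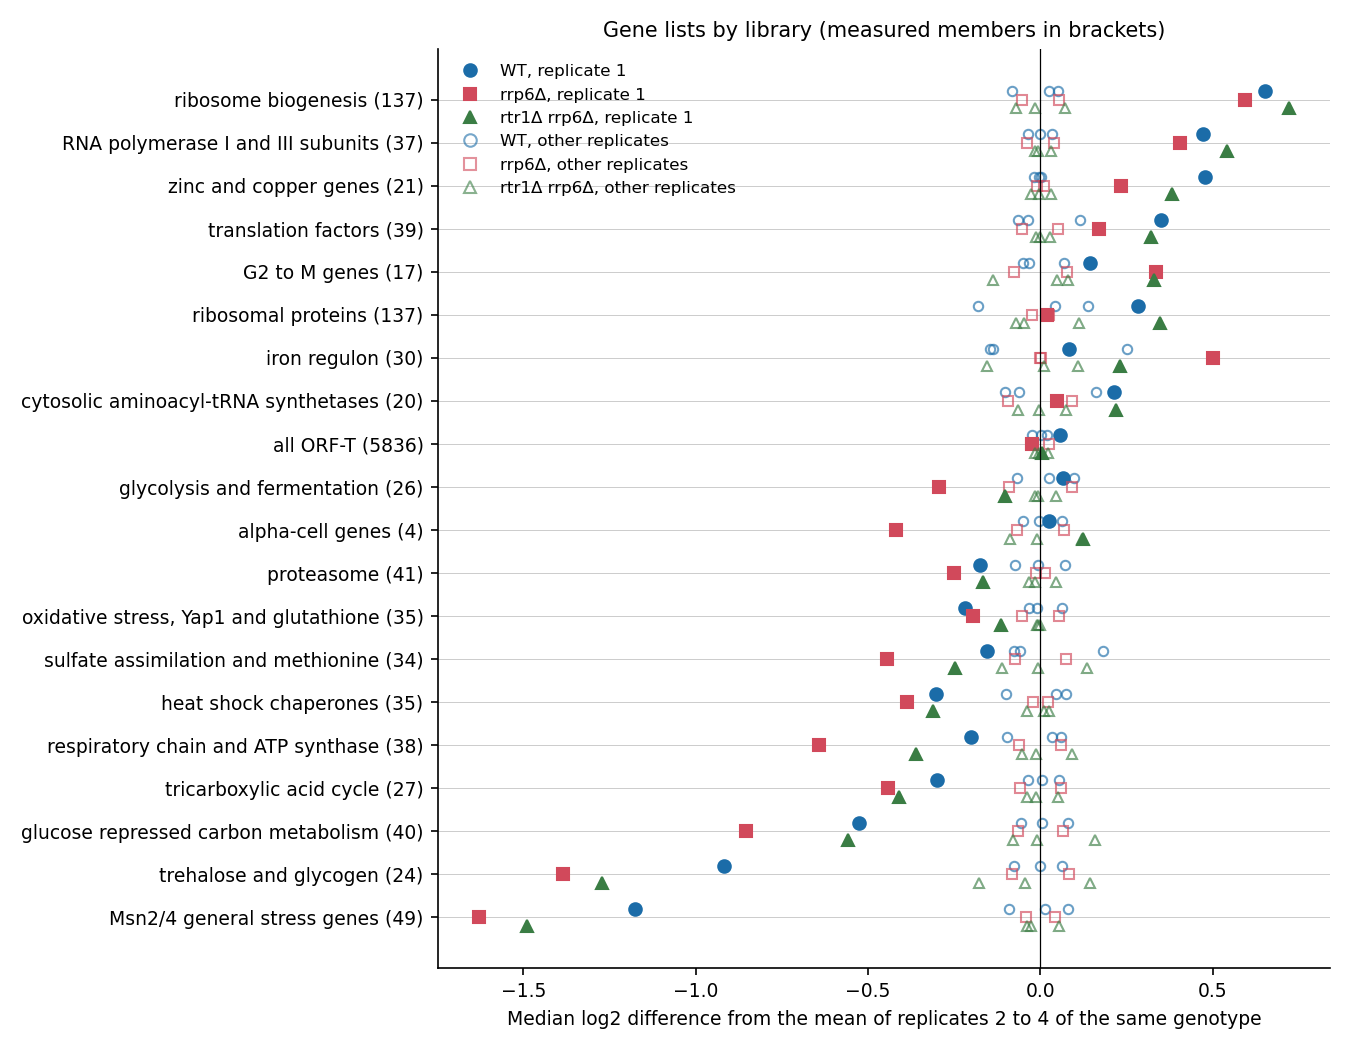
Median log2 difference of each gene group in each library from the mean of replicates 2 to 4 (for rrp6Δ, replicates 3 and 4) of the same genotype, with the measured members in brackets, filled symbols for replicate 1 and open symbols for the others. The ribosome biogenesis group lies at 0.593 to 0.722 in the 3 replicate 1 libraries and the Msn2/4 group at -1.63 to -1.18, with all ORF-T between -0.025 and 0.056. Within the open symbols no Msn2/4 median is further from 0 than -0.092. The open symbols are measured from their own mean, so their closeness to 0 is in part fixed.

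Ribosome biogenesis genes were higher in replicate 1 almost as a whole. Of 137 measured members, 132 rose and none fell, with a median log2 difference of 0.65 and a range of 0.19 to 1.15. The median was 0.65 in WT, 0.59 in rrp6Δ and 0.72 in rtr1Δ rrp6Δ, and 131 members lay above every other library of their genotype in all 3. The number of members that rose stayed between 110 and 136 over 21 settings, the main fit included.

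DBP8 (YHR169W), an RNA helicase of 40S subunit assembly, showed the largest difference of this group. Its level was 105 CPM in WT, 94.1 in rrp6Δ and 97.1 in rtr1Δ rrp6Δ of replicate 1, against 35.5 to 52.2 CPM (median 45.3) in the 8 other libraries. The groups did not overlap, and the log2 difference was 1.15 (SE 0.08, 2.22-fold, edgeR adjusted p = 4e-07). DHR2 (YKL078W), another helicase of 18S rRNA maturation, measured 90, 89.9 and 106 CPM against 39.9 to 46.9 CPM (median 43.8), a log2 difference of 1.14 (SE 0.07). UTP9 (YHR196W) and UTP6 (YDR449C), subunits of the processome that assembles on the nascent pre-rRNA, were also above all 8 other libraries. UTP9 stood at 183, 162 and 197 CPM against 89.7 to 102 CPM, and UTP6 at 85.5, 74.4 and 90.9 CPM against 41.3 to 47.4 CPM. SSF1 (YHR066W), a factor of large subunit maturation, stood at 171, 154 and 191 CPM against 86.9 to 93.3 CPM. All 3 changed by 0.93 to 0.96 on the log2 scale (SE 0.06), and their 8 other libraries lay close together.

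Genes for RNA polymerases I and III, which transcribe rRNA, 5S rRNA and tRNA genes, rose in the same libraries. Of 37 members 25 rose, with a median log2 difference of 0.46. The 3 that fell were MAF1, the repressor of polymerase III, and TFC3 and TFC7, subunits of its initiation factor TFIIIC, and 1 of them did without rrp6Δ replicate 1. RRN11, RRN7 and RRN6 encode the core factor that brings polymerase I to the rDNA promoter. RRN11 (YML043C) measured 46.1, 37.1 and 42.1 CPM against 14.9 to 20.6 CPM (median 20.1), a log2 difference of 1.15 (SE 0.09, edgeR adjusted p = 6.9e-07). RRN7 (YJL025W) stood at 25.6, 26.1 and 25.3 CPM against 10.9 to 14.9 CPM, and RRN6 (YBL014C) at 87.2, 82 and 83.8 CPM against 45.2 to 59.4 CPM. Their log2 differences were 0.98 (SE 0.09) and 0.73 (SE 0.06). RRN3 (YKL125W), the initiation factor that binds polymerase I itself, rose by 0.66 (SE 0.06), but its WT value of 62.3 CPM lay inside the range of the other genotypes (38.7 to 66.1 CPM over the 8 libraries).

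The promoters of DBP8 and RRN11, the members with the largest difference in each of these groups, are printed because both carry the core of the PAC element. The window runs from 250 bases before to 50 bases after the coding start in RefSeq assembly R64, which corresponds to the sacCer3 build of the files, 5′ to 3′ on the coding strand, and capitals mark GATGAG read on either strand. The DBP8 window is chrVIII:441931-442230 on the plus strand with 1 match starting 137 bases before the coding start. The RRN11 window is chrXIII:191718-192017 on the minus strand with 3 overlapping matches, starting 189, 184 and 179 bases before the coding start.
DBP8: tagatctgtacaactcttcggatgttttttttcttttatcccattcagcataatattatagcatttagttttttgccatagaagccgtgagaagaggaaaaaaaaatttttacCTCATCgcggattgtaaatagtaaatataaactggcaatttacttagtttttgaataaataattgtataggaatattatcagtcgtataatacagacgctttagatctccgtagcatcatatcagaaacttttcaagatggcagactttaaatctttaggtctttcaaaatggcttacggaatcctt
RRN11: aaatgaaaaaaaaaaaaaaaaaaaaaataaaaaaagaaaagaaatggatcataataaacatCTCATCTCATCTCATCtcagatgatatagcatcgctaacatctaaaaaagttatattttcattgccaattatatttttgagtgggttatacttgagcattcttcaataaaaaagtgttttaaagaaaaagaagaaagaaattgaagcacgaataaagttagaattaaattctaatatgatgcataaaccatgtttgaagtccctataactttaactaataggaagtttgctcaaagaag

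GATGAG was present in 20% of the 5586 ORF-T windows read and in 36.7% of the 1315 windows of ORF-T called higher in replicate 1. It was present in 67.2% of the 262 that were also at least 1.5-fold higher, against 13.3% of the 1328 called lower and 15.2% of the 500 lower by at least 1.5-fold. Among ribosome biogenesis genes 124 of 137 windows (90.5%) held it, and among the polymerase I and III genes 23 of 37 (62.2%). Ribosomal protein genes held it in 10.9%. These shares describe letters in a window and carry no test.

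Ribosomal protein and translation genes moved less, and less uniformly. Of 137 ribosomal protein genes 52 rose and none fell, with a median log2 difference of 0.21 and a range of -0.19 to 0.68. The median was 0.28 in WT and 0.35 in rtr1Δ rrp6Δ but 0.02 in rrp6Δ. RPS21A (YKR057W), a small subunit protein, measured 723, 519.8 and 637 CPM against 377 to 529 CPM, so that the rrp6Δ library overlapped the rest. RPL27B (YDR471W), a large subunit protein, stood at 1114, 825 and 973 CPM against 679 to 871 CPM with the same overlap. The log2 differences of these genes were 0.49 (SE 0.11) and 0.41 (SE 0.08), and most ribosomal protein genes have a near-identical paralogue, so their counts may be split between copies. Their number called higher fell to 1 without rtr1Δ rrp6Δ replicate 1, to 12 without WT replicate 1, to 15 without rrp6Δ replicate 3, to 13 without replicate 4 and to 27 without replicate 3 or WT replicate 4, and was 70 with a replicate block.

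Translation factors gave 28 of 39 higher and none lower, with a median log2 difference of 0.29. RPG1 (YBR079C) and NIP1 (YMR309C), both subunits of initiation factor eIF3, stood at 619, 452 and 487 CPM against 266 to 529 CPM and at 939, 729 and 819.6 CPM against 568 to 716 CPM. RPG1 overlapped the other libraries across genotypes and NIP1 did not. The count fell to 3 without rtr1Δ rrp6Δ replicate 1, to 6 without replicate 3, to 9 without rrp6Δ replicate 3, to 15 without WT replicate 1 and to 17 without WT replicate 4. It was 18 without all of replicate 4. Of 20 cytosolic aminoacyl-tRNA synthetase genes 5 rose (ALA1, YDR341C, YHR020W, MES1 and TYS1) and none fell, a share close to that of all ORF-T, and 0 to 8 rose when libraries were left out.

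Among cell cycle genes, 11 of 17 G2 to M genes rose and none fell (median 0.27), and 9 of 29 genes of the G1 to S list rose while 4 fell (SWI4, RFA1, RFA2 and CDC21). CLB2 (YPR119W), the main mitotic cyclin, measured 108, 101 and 100 CPM against 55.3 to 81.9 CPM, a log2 difference of 0.68 (SE 0.08). Of 11 histone genes HHF1 rose and HHT2 and HHO1 fell. The G2 to M count was 2 without rtr1Δ rrp6Δ replicate 1 and 4 without replicate 3, without replicate 4 or without rrp6Δ replicate 3, and 5 without WT replicate 4 or rrp6Δ replicate 1. The G1 to S count of rises was 1 without replicate 3 or rtr1Δ rrp6Δ replicate 1, 2 without replicate 4 or rrp6Δ replicate 3, 3 without WT replicate 4 and 4 without WT replicate 1 or rrp6Δ replicate 1, and that of falls was 0 without rrp6Δ replicate 1 and 2 without WT replicate 1 or rrp6Δ replicate 4. Histone calls ran from 0 to 3 higher and 1 to 2 lower.

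The general stress genes moved the other way and further. Of 49 genes listed as Msn2/4 targets, 48 fell in replicate 1 and none rose, with a median log2 difference of -1.45 and a range of -3.42 to -0.39. All 48 lay below every other library of their genotype in all 3 genotypes. The median was -1.18 in WT, -1.63 in rrp6Δ and -1.49 in rtr1Δ rrp6Δ. Over 21 settings, the main fit included, 48 or 49 members fell.

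TMA10 (YLR327C), which encodes a ribosome-associated protein, had the largest difference among them. It measured 9.4 CPM in WT, 6.49 in rrp6Δ and 10.8 in rtr1Δ rrp6Δ of replicate 1, against 53.7 to 143 CPM (median 105) in the other libraries. The groups lay far apart, with a log2 difference of -3.42 (SE 0.35, 10.7-fold, edgeR adjusted p = 7.8e-06). DDR2 (YOL052C-A), a gene induced by many stresses, stood at 1.77, 1.93 and 1.46 CPM against 8.07 to 20.4 CPM (median 12). CYC7 (YEL039C), the minor isoform of cytochrome c, stood at 0.954, 0.981 and 0.861 CPM against 4.07 to 12.5 CPM. Both fell by over 8-fold, with log2 differences of -3.06 (SE 0.25) and -3.24 (SE 0.22). GAD1 (YMR250W), glutamate decarboxylase, fell from 43.9 to 58.7 CPM in the others to 15.7, 10.9 and 9.24 CPM.

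Enzymes that make and use storage carbohydrate fell with them. Of 24 trehalose and glycogen genes 21 fell and none rose, with a median log2 difference of -1.20 (-0.92 in WT, -1.39 in rrp6Δ and -1.27 in rtr1Δ rrp6Δ). The 3 members not called were PGM1, PCL10 and GLG1, named here because they complete the list, and PGM1 differed by 0.01 while its paralogue PGM2 was among the largest falls. GPH1 (YPR160W), glycogen phosphorylase, measured 37.3, 26 and 30.8 CPM against 243 to 588 CPM (median 356), a log2 difference of -3.59 (SE 0.26, 12-fold, edgeR adjusted p = 5.9e-07). PGM2 (YMR105C), phosphoglucomutase, measured 50.8, 29 and 30.5 CPM against 225 to 322 CPM (median 287), and fell by 2.92 (SE 0.19) on the log2 scale. In every case the 3 replicate 1 libraries lay below the lowest of the 8 others.

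On the side of synthesis, GLC3 (YEL011W), the glycogen branching enzyme, stood at 51.7, 14.4 and 23.7 CPM against 142 to 308 CPM. GSY2 (YLR258W), the main glycogen synthase, stood at 67.4, 46.9 and 48.7 CPM against 232 to 320.3 CPM, and GAC1 (YOR178C), which targets the Glc7 phosphatase to glycogen synthase, at 13.3, 6.36 and 6.73 CPM against 45.4 to 71.7 CPM. Genes for synthesis and for breakdown of glycogen thus fell together, with log2 differences of -2.85 (SE 0.25), -2.35 (SE 0.15) and -2.79 (SE 0.19) for these 3. WT had the highest replicate 1 value of each.

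The promoters of TMA10 and GPH1 are printed as those of the genes with the largest difference in the stress groups, and that of DDR2 was added after its values were seen because it held the most matches to the STRE letters in the Msn2/4 group. Capitals mark AGGGG read on either strand. The TMA10 window (chrXII:783338-783637, minus strand) and the GPH1 window (chrXVI:861056-861355, plus strand) hold none, which says only that the letters are not in these 300 bases. The DDR2 window (chrXV:231706-232005, minus strand) holds 3, starting 248, 203 and 175 bases before the coding start, each on the strand opposite to the gene.
TMA10: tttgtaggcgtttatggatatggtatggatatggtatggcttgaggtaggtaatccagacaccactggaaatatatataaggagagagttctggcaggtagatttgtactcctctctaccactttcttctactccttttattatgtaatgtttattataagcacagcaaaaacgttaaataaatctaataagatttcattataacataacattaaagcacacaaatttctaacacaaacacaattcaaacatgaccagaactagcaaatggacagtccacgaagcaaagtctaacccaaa
GPH1: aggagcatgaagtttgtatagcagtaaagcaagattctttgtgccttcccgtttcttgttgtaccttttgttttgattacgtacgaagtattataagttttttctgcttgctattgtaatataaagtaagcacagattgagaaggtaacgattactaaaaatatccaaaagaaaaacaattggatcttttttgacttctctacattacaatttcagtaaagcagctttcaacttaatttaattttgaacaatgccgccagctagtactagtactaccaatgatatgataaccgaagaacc
DDR2: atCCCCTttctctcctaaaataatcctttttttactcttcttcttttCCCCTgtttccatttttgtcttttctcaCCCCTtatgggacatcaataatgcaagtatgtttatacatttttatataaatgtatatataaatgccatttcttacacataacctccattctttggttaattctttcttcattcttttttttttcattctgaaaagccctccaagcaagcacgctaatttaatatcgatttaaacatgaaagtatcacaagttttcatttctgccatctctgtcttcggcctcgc

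AGGGG on either strand was present in 21.9% of the 5586 windows. It was present in 41.8% of the 1328 ORF-T windows called lower in replicate 1 and in 53% of the 500 that were at least 1.5-fold lower, and in 11.2% and 10.3% of those called higher by the same thresholds. At least 2 matches were found in 2.97% of all windows and in 12.4% of those at least 1.5-fold lower. In the Msn2/4 group 34 of 49 windows (69.4%) held a match, but members of that list are known targets and its share is not independent of the letters. In the trehalose and glycogen group 11 of 24 did (45.8%), and in the ribosome biogenesis group 13 of 137 (9.49%).

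**Figure D3:**
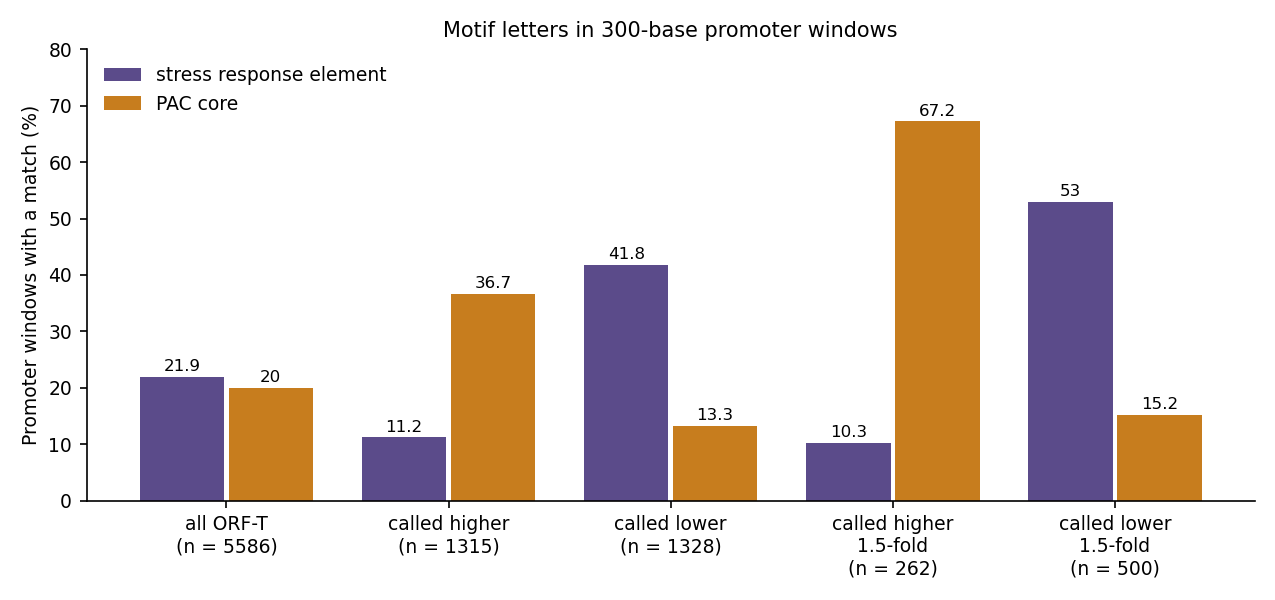
Share of 300-base promoter windows (250 bases before to 50 after the coding start) that hold the letters of the stress response element or of the PAC core on either strand, for all ORF-T rows read and for those called higher or lower in replicate 1, with and without a 1.5-fold minimum. The PAC core is in 20% of all windows and 67.2% of those at least 1.5-fold higher, and the stress response element in 21.9% of all windows and 53% of those at least 1.5-fold lower.

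Heat shock chaperones fell in part. Of 35 measured genes 20 fell and 1, the Hsp40 gene YDJ1, rose, with a median log2 difference of -0.33. The 20 include PIC2 (YER053C, log2 difference -1.81), which encodes a mitochondrial carrier and not a chaperone. HSP104 (YLL026W), the disaggregase of the cytosol, measured 335, 255 and 285 CPM against 702 to 914 CPM (median 807) and fell by 1.44 (SE 0.10) on the log2 scale. HSP42 (YDR171W), a small heat shock protein, stood at 30.5, 16.9 and 16.1 CPM against 88.3 to 131 CPM, and HSP78 (YDR258C), the mitochondrial disaggregase, at 51.1, 24.4 and 35.3 CPM against 75.4 to 144 CPM. SSE2 (YBR169C), a nucleotide exchange factor for Hsp70, stood at 33.3, 23 and 26.1 CPM against 62.1 to 69.7 CPM. None of these overlapped the other libraries. The rise of YDJ1 was called in some settings only, with 0 to 2 members higher when libraries were left out.

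Of other stress groups, 15 of 35 oxidative stress genes fell and 4 rose (YCF1, GPX2, FLR1 and CTA1), with a median of -0.18 and with 2 higher without rtr1Δ rrp6Δ replicate 1. PRX1 (YBL064C), the mitochondrial peroxiredoxin, stood at 34.7, 38.4 and 43.9 CPM against 54.8 to 80.7 CPM. Proteasome genes fell in 20 of 41 cases and rose in none, by small amounts (median -0.18). PRE4 (YFR050C), a subunit of the 20S core, measured 151, 132 and 155 CPM against 169 to 191 CPM, a log2 difference of -0.30 (SE 0.06). The proteasome count was 8 without rrp6Δ replicate 1, 12 without WT replicate 1, 31 without rtr1Δ rrp6Δ replicate 1 and 32 without rrp6Δ replicate 3. Of 21 genes of the unfolded protein response 4 rose (PMT2, SSS1, CNE1 and YSY6) and 2 fell (HRD1 and DER1), with 0 higher without replicate 4, WT replicate 4, rrp6Δ replicate 3 or rtr1Δ rrp6Δ replicate 1.

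Glucose transporter genes moved in both directions. HXT1 (YHR094C), a low-affinity glucose transporter induced by high glucose, was higher at 131, 121 and 122 CPM against 48.4 to 88.8 CPM (median 60), a log2 difference of 0.93 (SE 0.16, edgeR adjusted p = 0.00049). HXT4 (YHR092C), a transporter of higher affinity that is repressed by high glucose, was lower at 28.4, 63.8 and 91.3 CPM against 98.7 to 361 CPM (median 259), a log2 difference of -1.97 (SE 0.15). HXT6 (YDR343C) and HXT7 (YDR342C), the high-affinity pair next to each other on chromosome IV, stood at 2.86, 2.47 and 2.12 CPM against 15.9 to 37.6 CPM and at 7.78, 6.14 and 11.4 CPM against 30.7 to 67.7 CPM. They are nearly identical in sequence, so reads could be split between them, and their separate values are uncertain. Of 17 measured genes of the transporter list, which also holds their regulators, 4 rose and 7 fell. The 4 were HXT1, MIG2, MIG3 and STD1, the last 3 being regulators of the glucose response, and HXT5, HXT8, HXT9 and the glucose sensor SNF3 fell beside HXT4, HXT6 and HXT7. The number that rose was 1 without rtr1Δ rrp6Δ replicate 1 and 2 without replicate 3 or rrp6Δ replicate 1, and 4 fell without rrp6Δ replicate 1.

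Genes repressed by glucose fell as well, in 29 of 40 measured cases with none higher (median -0.57). HXK1 (YFR053C), a hexokinase made when glucose is scarce, measured 77, 103 and 157 CPM against 466 to 1104 CPM (median 728), a log2 difference of -2.83 (SE 0.20). GLK1 (YCL040W), glucokinase, stood at 257, 151 and 174 CPM against 576 to 752 CPM, though an ORF on the same strand overlaps it. MTH1 (YDR277C), which holds glucose transporter genes down when glucose is low, stood at 45.6, 37.6 and 47.3 CPM against 93 to 152 CPM.

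Respiration followed the same direction. Of 27 genes of the tricarboxylic acid cycle 18 fell and 1 rose (median -0.41, 0 to 2 higher when libraries were left out), and of 38 genes of the respiratory chain and ATP synthase 27 fell and none rose (median -0.36). CIT1 (YNR001C), mitochondrial citrate synthase, measured 127, 96.9 and 136 CPM against 224 to 277 CPM (median 267), a log2 difference of -1.11 (SE 0.10). SDH2 (YLL041C), the iron-sulphur subunit of succinate dehydrogenase, stood at 32, 27.2 and 26.2 CPM against 49.6 to 81.6 CPM. NDI1 (YML120C), the internal NADH dehydrogenase, stood at 29.2, 23.1 and 20.1 CPM against 52 to 89.2 CPM. COX5B (YIL111W), also listed with the anaerobic and hypoxic genes, stood at 32.4, 19.6 and 21.7 CPM against 51.6 to 77.5 CPM. INH1 (YDL181W), an inhibitor of the ATP synthase, stood at 2.72, 3.89 and 5.67 CPM against 7.59 to 17.9 CPM. The fall of the respiratory chain group was -0.64 in rrp6Δ, -0.36 in rtr1Δ rrp6Δ and -0.20 in WT by median, and 17 members fell without rrp6Δ replicate 1. Mitochondrial ribosomal protein genes gave 11 lower and 2 higher of 71, and 4 to 18 lower and 0 to 2 higher when libraries were left out.

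Of 26 genes of glycolysis and fermentation 9 fell (TDH1, TDH2, ENO1, PYK2, GPM1, GPM2, PDC6, PFK26 and ADH5) and 2 rose (ADH4 and PFK27), with a median log2 difference of -0.09 and 1 higher without rtr1Δ rrp6Δ replicate 1. TDH1 (YJL052W), a glyceraldehyde-3-phosphate dehydrogenase, measured 192, 83.7 and 105 CPM against 509 to 800.4 CPM, a log2 difference of -2.34 (SE 0.19), and PYK2 (YOR347C), the pyruvate kinase used at low flux, 43.7, 23.3 and 24.2 CPM against 59.1 to 106 CPM. ENO1 (YGR254W), an enolase, stood at 1333, 507 and 638 CPM against 1522 to 2339 CPM, with the WT library closest to the rest. Counts of these genes may include reads of their close paralogues.

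**Figure D4:**
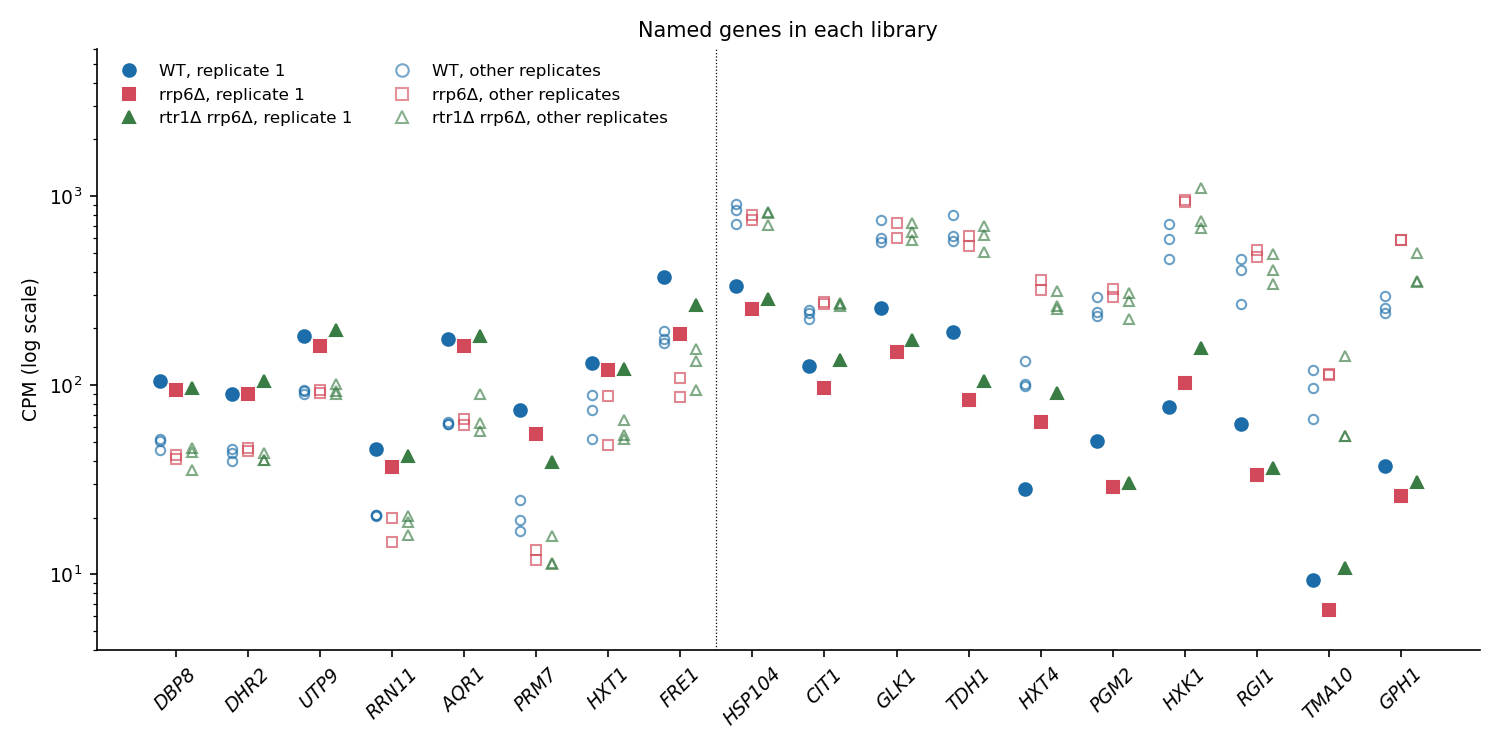
Levels of 18 named genes in each of the 11 libraries, in CPM on a log axis, with filled symbols for replicate 1 and open symbols for the other replicates, genes higher in replicate 1 left of the dotted line and genes lower right of it. GPH1 lies at 26 to 37.3 CPM in replicate 1 and at 243 to 588 CPM in the others, and DBP8 at 94.1 to 105 CPM against 35.5 to 52.2 CPM. Within each gene the 3 genotypes move the same way, but the genes were chosen for their difference in these libraries, so this is no separate result.

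Zinc and copper genes rose in 14 of 21 cases and fell in 1 (median 0.36), and iron regulon genes rose in 11 of 30 and fell in 2 (median 0.21). FRE1 (YLR214W), the main ferric and cupric reductase, measured 376, 186 and 266 CPM against 86.5 to 194 CPM, so that rrp6Δ overlapped WT of the other days, with a log2 difference of 1.02 (SE 0.12). FET3 (YMR058W), the ferroxidase of high-affinity iron uptake, rose by 0.57 (SE 0.10) and overlapped in the same way (1085, 720 and 892 CPM against 392 to 890.2 CPM). IZH1 (YDR492W), a gene of zinc metabolism, stood at 167, 169 and 162 CPM against 88.3 to 116 CPM. ZRT1 (YGL255W), the high-affinity zinc transporter, rose by 0.54 (SE 0.08) within genotypes whose levels differed widely (101, 149 and 53.8 CPM against 33.7 to 118 CPM). The iron count was 3 and the zinc and copper count 7 without rtr1Δ rrp6Δ replicate 1, and the iron count was 5 without replicate 3 and 7 without rrp6Δ replicate 3.

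Genes of sulphate assimilation and methionine fell in 16 of 34 cases and rose in 2 (median -0.29). STR3 (YGL184C), a cystathionine lyase, measured 4.77, 6.9 and 9.48 CPM against 13.9 to 49.4 CPM, a log2 difference of -2.20 (SE 0.17), and MUP3 (YHL036W), a methionine permease, 30, 20.4 and 21.4 CPM against 47.3 to 79.4 CPM. The 2 that rose, SAH1 and MET7, were called in some settings only (0 to 4 higher when libraries were left out). Nitrogen catabolite genes gave 12 lower and 6 higher of 37, with 3 higher when replicate 3 or replicate 4 was left out whole, and also without replicate 1 or 4 of WT, replicate 3 of rrp6Δ, or rtr1Δ rrp6Δ replicate 1. Among those that fell were PUT1 (YLR142W), proline oxidase, at 13.3, 14.7 and 15.5 CPM against 21.7 to 60.1 CPM, and UGA1 (YGR019W), GABA transaminase, at 63.8, 28.2 and 34.5 CPM against 67.2 to 111 CPM.

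Ergosterol genes rose in 11 of 27 cases and fell in 2 (median 0.14), with ERG11 (YHR007C), the lanosterol demethylase, at 1115, 996 and 1065 CPM against 643 to 883 CPM and HMG1 (YML075C), HMG-CoA reductase, at 152, 154 and 169.7 CPM against 90.2 to 127 CPM. Purine and GMP genes gave 9 higher and 4 lower of 21. BAS1 (YKR099W), a transcription factor of purine and histidine synthesis, measured 86.4, 71 and 73.4 CPM against 36.7 to 56.3 CPM, a log2 difference of 0.88 (SE 0.07), and IMD4 (YML056C), an IMP dehydrogenase with close paralogues, 893, 776 and 886 CPM against 483 to 644 CPM. Of 22 phosphate genes 9 rose and 4 fell. KCS1 (YDR017C), an inositol hexakisphosphate kinase, rose by 0.61 (SE 0.06), and PHM8 (YER037W), a lysophosphatidic acid phosphatase, fell by 1.17 (SE 0.14) on the log2 scale. When libraries were left out, the number of rises ran from 5 to 12 in the ergosterol group, from 4 to 10 in the purine group and from 3 to 9 in the phosphate group, with the lowest value in each without rtr1Δ rrp6Δ replicate 1. Ergosterol genes that fell numbered 5 without WT replicate 4, 4 without rrp6Δ replicate 3 and 1 without rrp6Δ replicate 1, and purine genes that fell numbered 2 without rrp6Δ replicate 1 or rtr1Δ rrp6Δ replicate 1. Amino acid genes under Gcn4 gave 7 higher and 9 lower of 52, vitamin genes 7 higher and 5 lower of 35, and peroxisome genes 3 higher and 10 lower of 23. The 5 vitamin genes that fell, BNA1, BNA2, BNA3, BNA5 and BNA6, are named for the biosynthesis of nicotinic acid, and 8 vitamin genes fell without replicate 2, replicate 4 or WT replicate 4 and 9 without rrp6Δ replicate 3. The rises of the Gcn4 and vitamin groups fell to 1 and 0 without rtr1Δ rrp6Δ replicate 1.

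The largest rises among the 15 ORF-T rows chosen for a rise lay outside these groups. PRM7 (YDL039C), YDL038C and BSC1 (YDL037C) lie next to each other by systematic name, PRM7 at chrIV:381985-384081 and BSC1 at chrIV:384601-385587 in R64, and YDL038C was not matched to that annotation. PRM7 measured 73.7, 55.3 and 39.4 CPM against 11.4 to 24.8 CPM (median 14.7), a log2 difference of 1.85 (SE 0.12, edgeR adjusted p = 4e-07). YDL038C measured 403, 288 and 259 CPM against 59.9 to 159 CPM, and BSC1 290.2, 219 and 197 CPM against 49.2 to 118 CPM. All 3 rose by over 3-fold in every genotype. AQR1 (YNL065W), an exporter of weak acids and amino acids, measured 176, 161 and 182 CPM against 57.3 to 89.8 CPM. Its log2 difference was 1.40 (SE 0.10), and it belongs to the drug and weak acid pump group.

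Drug and weak acid pumps as a group went both ways, with 5 of 19 higher (3 without rtr1Δ rrp6Δ replicate 1) and 4 lower. Both shares were close to those of all ORF-T. The polyamine exporters TPO1 (YLL028W) and TPO4 (YOR273C) moved in opposite directions, TPO1 at 65.2, 60.2 and 58.2 CPM against 33.2 to 44.4 CPM and TPO4 at 42.3, 44.5 and 39.8 CPM against 72.5 to 143 CPM. Among the largest falls were YNL194C, a membrane protein gene, at 0.566, 0.38 and 0.464 CPM against 4.39 to 17 CPM, EGO4 (YNR034W-A) at 5.23, 7.79 and 6.53 CPM against 26.4 to 131 CPM, and RGI1 (YER067W), a gene of energy metabolism under respiratory growth, at 62.3, 33.4 and 36.5 CPM against 270 to 519 CPM. Their log2 differences were -4.30 (SE 0.47), -3.33 (SE 0.23) and -3.28 (SE 0.25).

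Cell wall genes gave 11 lower and 5 higher of 35. SED1 (YDR077W), a cell wall glycoprotein, measured 862, 580.2 and 521 CPM against 912 to 1386 CPM, and PIR3 (YKL163W), another wall protein, 8.2, 10.5 and 10 CPM against 13.9 to 28.5 CPM. The number of wall genes that rose ran from 0 to 10 when libraries were left out. Of 27 a-cell and pheromone genes 8 rose and 5 fell, with 3 to 9 and 3 to 6 when libraries were left out. STE2 (YFL026W), the receptor for α-factor, stood at 821, 675 and 730.1 CPM against 511 to 589.8 CPM, and FAR1 (YJL157C), which arrests the cell cycle on pheromone, rose by 0.44 (SE 0.06). None of the 4 α-cell genes was called, 1 of 12 measured PAU genes fell (PAU23; 0 to 6 when libraries were left out and 4 with a replicate block), and anaerobic genes gave 3 higher (6 without replicate 4 or WT replicate 4) and 4 lower of 20. Of 30 measured meiosis and sporulation genes 7 rose and 2 fell (3 to 7 and 1 to 4 when libraries were left out), with SPS1 (YDR523C), a sporulation kinase, at 10.3, 13.9 and 11.6 CPM against 3.52 to 8.09 CPM. Early G1 daughter genes gave 6 higher and 1 lower of 15.

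Noncoding transcripts were called in both directions in most classes. By adjusted p and at least 1.5-fold, 181 of 3055 AST were higher and 223 lower, 50 and 107 of 1442 NUT, 71 and 43 of 844 CUT, 33 and 65 of 719 SUT, 2 and 41 of 240 SRT, and 15 and 0 of 158 small nuclear and nucleolar RNAs, whose median log2 difference was 0.22. For ORF-T these numbers were 273 and 522 of 5836. Over all 12670 transcripts 636 (5.02%) were higher and 1033 (8.15%) lower, and the AST counts lay close to these shares. The largest falls outside ORF-T had levels close to those of a gene named above. The antisense row of YER067C-A measured 47.9, 25.4 and 28.5 CPM against 222 to 424 CPM, beside RGI1 (YER067W), and NUT0664 measured 5.55, 8.93 and 7.55 CPM against 26.9 to 133 CPM, beside EGO4. SNR52, a snoRNA, and CUT567 rose with nearly the same values, at 18, 36.7 and 43.9 CPM and at 18, 35.6 and 39.7 CPM, against 2.47 to 20.1 and 2.19 to 18.3 CPM, with the WT library of replicate 1 inside the range of the others. The count table carries no coordinates, so whether such rows share reads was not tested, and a number of rows is not a number of separate RNAs.

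Whether the difference of replicate 1 was unlike between genotypes was tested by the interaction of genotype and replicate 1. With edgeR 0 of 12670 transcripts passed (0%), with 479 at an unadjusted p below 0.05 (3.78%), and with DESeq2 16 passed. Each genotype has 1 library of replicate 1. By median the falls of the Msn2/4 and the trehalose and glycogen groups were larger in the deletion strains than in WT, and ribosomal protein genes rose in WT and rtr1Δ rrp6Δ with a median near 0 in rrp6Δ. These medians were not tested against each other. GPH1 differed by -2.82 in WT, -4.50 in rrp6Δ and -3.69 in rtr1Δ rrp6Δ, and DBP8 by 1.08, 1.17 and 1.21.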

How the data were processed

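Strand-specific total RNA libraries were prepared by the authors after removal of rRNA and sequenced on an Illumina HiSeq instrument. The deposited counts per transcript were made by the authors with STAR 2.5.2b and featureCounts (Subread 1.5.0) on sacCer3, and were used here as raw counts. The ERCC spike-in was not used here. The authors' own columns of fold changes, p-values, sums and averages were not used, nor was 1 per-sample column whose genotype could not be read from its header and position. Of 16 samples 11 were analysed. The 5 others were the rtr1Δ samples and 1 rrp6Δ sample. Among the transcripts 65 share identical counts with another row.

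Counts of the 11 libraries (28765694 to 38578463 per library) were fitted with the quasi-likelihood test of edgeR 4.0.16 in R 4.3.3, with genotype and replicate 1 as terms, TMM scaling and 7 residual degrees of freedom. filterByExpr removed 0 of 12670 rows. P-values were adjusted by Benjamini-Hochberg over all rows, with a threshold of 0.05. Counts over all transcripts or classes also required a change of 1.5-fold, and counts of group members did not. Levels are CPM on TMM-scaled library sizes, log2 CPM used a prior count of 2, and SE is the log2 difference divided by the root of the F statistic. Levels of different genes were not compared, since CPM is not per length. DESeq2 1.42.0 was an alternative.

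The pairing by replicate number comes from the methods (strains of a replicate were grown together) and not from the correlations. Same-number pairs had r = 0.40 to 0.89 and unlike numbers -0.78 to 0.53, so these ranges overlapped. The replicate block was therefore fitted as an alternative.

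The replicate 1 libraries and the 39 gene groups were chosen with earlier results of these data known, and 1 group, of mitochondrial genome genes, had no measured member. The genes named with values were RRP6, RTR1, the 15 ORF-T rows with the largest rise and the 15 with the largest fall beyond every other library, up to 5 members of each group by adjusted p or 2 by mean level, and 4 rows of other classes in each direction, of which those described here are a part. Promoter windows (250 bases before to 50 after the coding start) were read for 5586 ORF-T rows matched by systematic name to RefSeq assembly R64, and 5582 of them had ATG at the start. The scripts were tested on simulated data. Figures were drawn with matplotlib 3.10.9.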

Additional observations from a re-analysis of the deposited data

Results flagged for a closer look

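In WT and in rtr1Δ rrp6Δ, each with 4 libraries, the level of each named gene and the median of each of the main gene groups were examined for 1 library far from the other 3. The measure was the gap from the highest or lowest library to its nearest neighbour, divided by the whole range, set against Dixon's 95% critical value. Of 164 such values 42 exceeded it, and the library that stood apart was replicate 1 in all 42. Chance exceeds the critical value in about 5% of groups of normally distributed values. The genes were chosen for their difference in replicate 1, so the number carries no weight as a test.

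In WT the ratio of gap to range was high for GSY2 (0.891), HSP78 (0.904), INH1 (0.854), DBP8 (0.891), DHR2 (0.873), SSF1 (0.974), UTP9 (0.951), UTP6 (0.934), RRN11 (0.99), RRN7 (0.9), RRN6 (0.839), PRM7 (0.862), AQR1 (0.982), TPO1 (0.889), FRE1 (0.879), ZRT1 (0.898), STE2 (0.888), KCS1 (0.873), SPS1 (0.899), Msn2/4 general stress genes (0.862) and trehalose and glycogen (0.855). In rtr1Δ rrp6Δ it was high for SSE2 (0.854), CIT1 (0.935), ENO1 (0.891), MUP3 (0.843), SED1 (0.844), TPO4 (0.843), DHR2 (0.95), SSF1 (0.951), UTP9 (0.892), UTP6 (0.882), RRN11 (0.833), RRN3 (0.899), RRN6 (0.873), RPL27B (0.873), CLB2 (0.835), PRM7 (0.838), TPO1 (0.906), BAS1 (0.876), IMD4 (0.895), ERG11 (0.91) and Msn2/4 general stress genes (0.939). DHR2, SSF1, UTP9, UTP6, RRN11, RRN6, PRM7, TPO1 and the Msn2/4 group exceeded the value in both genotypes. The rrp6Δ group had 3 libraries and was not examined in this way.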

How the results depend on the processing

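The directions of all 78 named genes with values were the same in every alternative run: 3 other scalings, a minimum mean of 50 counts, no filter, DESeq2, a replicate block, and each replicate number or library left out, and each genotype taken alone, except for RTR1, which was not called (-0.14, and 0.07 in rtr1Δ rrp6Δ alone). Most of these genes were chosen for their difference in the same libraries, so this agreement of direction carries no weight as a test. Of the calls of these genes, that of RPS21A was lost without rtr1Δ rrp6Δ replicate 1 (log2 difference 0.28, edgeR adjusted p = 0.099). With no fold minimum 2534 transcripts were higher and 2298 lower, in place of 636 and 1033. A replicate block gave 641 higher and 1020 lower, 1 trehalose and glycogen gene rose in place of 0, 8 in place of 5 aminoacyl-tRNA synthetase genes rose, and PAU genes lower rose from 1 to 4. DESeq2 called 16 interactions in place of 0. Other scalings gave 540 to 659 higher and 1010 to 1113 lower transcripts. When single libraries or whole replicate numbers were left out, the counts ran from 343 to 745 higher and from 888 to 1307 lower. Ribosome biogenesis genes higher ran from 110 to 136, Msn2/4 genes lower from 48 to 49, and trehalose and glycogen genes from 20 to 22 lower and 0 to 1 higher. Ribosomal protein genes ran from 1 to 69 higher and from 0 to 2 lower. Without rtr1Δ rrp6Δ replicate 1, which gave the lowest values, the share of higher calls was 22.6% in place of 38.1% and the median log2 difference of ORF-T was -0.101 in place of 0.015. The cause was not tested. Between-day spread was not measured on the side of replicate 1, which is 1 day. Depth of 28765694 counts or more per library limits mainly the rows with few counts.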
